A study of Bos taurus with 12 samples.

Results

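The respiratory chain and ATP synthase are the protein complexes of the inner mitochondrial membrane that turn the oxidation of nutrients into ATP. NADH dehydrogenase (complex I) and succinate dehydrogenase (complex II) pass electrons to ubiquinone, the cytochrome bc1 complex (complex III) passes them to cytochrome c, and cytochrome c oxidase (complex IV) reduces oxygen. Complexes I, III and IV pump protons, and ATP synthase uses the returning protons to make ATP. In the uterus this machinery supplies an epithelium that secretes, and a stroma that is remodelled, through every oestrous cycle under ovarian steroids.

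The members were taken by gene symbol: NDUFA, NDUFB, NDUFC, NDUFS and NDUFV subunits of complex I, SDHA to SDHD, UQCR subunits and CYC1 of complex III, UQCC proteins that assemble complex III, the COX4 to COX8 families, and ATP5 genes. Assembly factors of the NDUFAF family were left out. Each gene was represented by its brightest probe set (a group of probes for a transcript) with a log2 value above 4 on at least 3 of 12 arrays. This gave 82 genes of 6781 measured: 36 of complex I, 4 of complex II, 9 of complex III, 4 UQCC assembly proteins, 12 of complex IV and 17 of ATP synthase. NDUFA4, first assigned to complex I and later to complex IV, was counted with complex IV. In all, 85 genes matched the symbol rule, and COX6A2, NDUFA4L2 and COX6B2 did not pass the filter. The filter did not select among the 82 genes by group, since their lowest value on any array was 7.66 (NDUFA11). UQCC1, UQCC2, CYCS, COX4I2, COX6B1, COX7B and the subunits encoded in the mitochondrial genome were not analysed here.

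Endometrial biopsies came from Simmental heifers in the cycle before each received an embryo, and Affymetrix arrays measured pooled RNA. The 4 groups have 3 pools each: CDd14 and CDd7 are the day 14 and day 7 biopsies of heifers that later delivered a calf, and NPd14 and NPd7 those of heifers that returned to heat without a pregnancy. The labels give no treatment for any group. The labels do not say which heifers make up a pool, so p-values measure the spread between these pools, and the small number of arrays limits the precision. A biopsy mixes epithelium, stroma, vessels and immune cells, and fewer cells of a type cannot be told apart from less RNA per cell.

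The median log2 signal per array ranged from 4.89 to 5.06. Across probe sets, arrays correlated at 0.922 to 0.989 within groups and at 0.862 to 0.981 between groups. Pool 3 of NPd14 and pool 2 of CDd7 lay at the opposite ends of the first principal component (56.82 and -84.65), which held 45.4% of the variance. Epithelial markers were measured in every group (15 of 18 kept, mean log2 level 10.58 to 10.76 in CDd14, 10.14 to 10.25 in CDd7, 10.06 to 10.56 in NPd14 and 10.12 to 10.23 in NPd7), although KRT8 was not kept. Endothelial, smooth muscle and red cell lists had 1 kept marker each, and neither haemoglobin gene HBA nor HBB was kept.

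The genes were highest as a set in CDd7. Each gene's value was set against its own mean over the 12 arrays, and the median of these deviations over the 82 genes was taken on each array. It was -0.01, -0.26 and -0.11 in CDd14, 0.27, 0.41 and 0.18 in CDd7, -0.13, -0.03 and -0.50 in NPd14, and 0.01, 0.23 and -0.00 in NPd7 (log2). All CDd7 pools lay above all CDd14 and NPd14 pools, while CDd7 and NPd7 overlapped and so did CDd14 and NPd14. From the highest to the lowest, the group means were 0.29 ± 0.12 in CDd7, 0.08 ± 0.13 in NPd7, -0.13 ± 0.13 in CDd14 and -0.22 ± 0.25 in NPd14 (SD, n = 3 pools). Pool 3 of NPd14 was the lowest pool of its group for 70 of 82 genes.

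**Figure D1:**
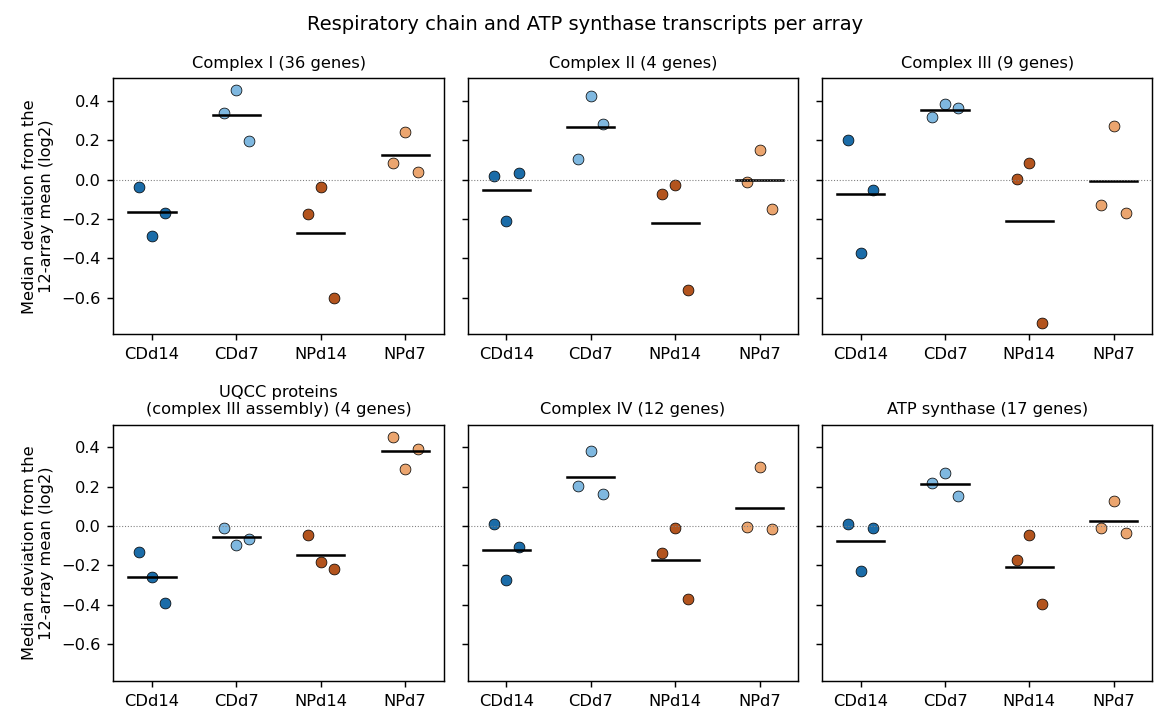
Median deviation of each complex's genes from their 12-array means (log2, y axis) for each of the 3 pools of CDd14, CDd7, NPd14 and NPd7 (x axis, points in pool order), with the group mean as a line. The CDd7 points are above the CDd14 points for complexes I to IV, ATP synthase and the UQCC genes, and the 4 UQCC assembly genes are highest in NPd7.

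The first comparison asks how endometrium at day 14 differs from day 7 in heifers that went on to deliver a calf. The median difference was negative in every complex. Of the 82 genes, 25 fell, none rose and 57 did not pass (limma with Benjamini-Hochberg adjustment over 13449 probe sets, adjusted p under 0.05). Over all 6781 genes, 14.2% fell and 9.87% rose in this comparison, 24.1% in either direction. The difference was negative for 77 of the 82 genes, with a median of -0.39 (log2) against -0.0042 over all genes, and the falls ranged from 1.35-fold (COX8A) to 2.68-fold (ATP5MC1). In 48 genes every CDd14 pool lay below every CDd7 pool, and in 0 genes above, where 22.8% and 22.1% of all genes did so.

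The count rested on single arrays, while the direction did not. Without pool 2 of CDd7, the highest pool of its group for 47 of the 82 genes, 3 genes passed: NDUFB6, NDUFC2 and SDHB. Without pool 3 of CDd14 8 genes passed, without pool 2 of CDd14 or pool 1 of CDd7 11 passed in each case, and without pool 3 of NPd14 34 passed. The median stayed between -0.48 and -0.32 whichever of the 12 arrays was left out.

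Complex I held most of the genes that fell, 15 of its 36, and all 36 of its differences were negative, with a median of -0.50. NDUFB6, an accessory subunit of the proton-pumping membrane arm, had log2 signals of 11.94, 11.76 and 11.82 in CDd14, against 12.93, 12.87 and 12.63 in CDd7. It read 11.78, 12.17 and 11.65 in NPd14 and 12.48, 12.64 and 12.30 in NPd7. The day 14 pools lay below the day 7 pools in both outcome groups. The log2 change was -0.97 ± 0.16 in CD (SE, 1.96-fold, adjusted p = 0.0042) and -0.61 ± 0.16 in NP, which did not pass (adjusted p = 0.133). NDUFC2, another membrane arm subunit, had 13.98, 13.91 and 13.83 in CDd14 and 14.54, 14.49 and 14.31 in CDd7, a fall of 1.46-fold (adjusted p = 0.0103). NDUFA11, which sits where the membrane arm meets the rest of the complex, had 7.99, 7.88 and 7.66 in CDd14 and 8.90, 9.08 and 8.44 in CDd7, a fall of 1.95-fold (adjusted p = 0.0141). The groups did not overlap for either gene.

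The catalytic parts of complex I were among the genes that fell. The N module, which binds and oxidises NADH, had 5 of 8 genes past the threshold and a median of -0.61. Among them NDUFV1, which carries the flavin that takes electrons from NADH, had 10.40, 9.84 and 10.28 in CDd14 and 10.85, 11.28 and 10.83 in CDd7 (log2 change -0.81 ± 0.25, adjusted p = 0.0426). The iron-sulfur subunit NDUFV2 fell 1.58-fold, and the accessory subunits NDUFS6, NDUFV3 and NDUFA2 fell 1.60-fold, 1.77-fold and 1.44-fold. NDUFS1, the large iron-sulfur subunit of the same module, had a change of -0.56 ± 0.30 and did not pass. In the Q module, which hands electrons to ubiquinone, NDUFS3 had 9.64, 9.16 and 9.54 in CDd14 and 10.28, 10.66 and 10.15 in CDd7 (log2 change -0.92 ± 0.21, adjusted p = 0.0151). NDUFS8, an iron-sulfur subunit beside it, fell 1.83-fold (adjusted p = 0.0195). The other Q module genes NDUFS7, NDUFA9 and NDUFA5 did not pass, with changes of -0.59, -0.34 and -0.19. A dimmer kept probe set of NDUFA5 had a change of -0.68 and did not pass either (adjusted p = 0.0803).

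Of 22 membrane arm and other subunits, 7 fell: NDUFB7 by 2.01-fold, NDUFB5 by 1.55-fold, NDUFB1 by 1.53-fold and NDUFA8 by 1.49-fold, beside NDUFB6, NDUFC2 and NDUFA11. NDUFAB1, the acyl carrier protein that complex I shares with mitochondrial fatty acid synthesis, fell 1.48-fold (adjusted p = 0.0476). Its second kept probe set, dimmer, had a change of 0.34 and did not pass (adjusted p = 0.121), and the mean of both gave -0.12 (adjusted p = 0.445), so the call holds for the brighter probe set alone. Of 12 members with a second kept probe set, 8 of the second ones had the same sign as the brighter one and none passed. NDUFS3 and the complex III gene UQCRB had changes of -0.49 and -0.19 on their second probe sets, and averaging left NDUFS3 at an adjusted p of 0.0524. At the other end of the complex, NDUFB2 was level on its brighter probe set, with 12.28, 12.56 and 12.54 in CDd14 and 12.42, 12.51 and 12.49 in CDd7. Its second kept probe set, dimmer, had a change of -0.53 and did not pass (adjusted p = 0.325). NDUFB8 and NDUFB10, also of the membrane arm, had changes of -0.06 ± 0.13 each.

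Complex II, which links the citric acid cycle to the chain, changed in 1 of its 4 genes. SDHB, the iron-sulfur subunit, had 11.62, 11.37 and 11.63 in CDd14, against 12.42, 12.40 and 12.22 in CDd7. Its values were 11.65, 11.68 and 11.03 in NPd14 and 11.82, 11.95 and 11.82 in NPd7. CDd7 stood above the other 3 groups with no overlap. The fall in CD was 0.81 ± 0.17 on the log2 scale, or 1.75-fold (adjusted p = 0.0108). The flavoprotein SDHA had 11.58, 11.31 and 11.50 in CDd14 and 11.73, 12.24 and 11.81 in CDd7 and did not pass (-0.46 ± 0.25, adjusted p = 0.193). The membrane anchors did not pass either. SDHC changed by -0.17 ± 0.16, and SDHD had 13.70, 13.77 and 13.82 in CDd14 and 13.73, 13.81 and 13.77 in CDd7.

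Among the 9 genes of complex III, only UQCRB fell. This subunit next to cytochrome b had 12.18, 11.53 and 12.03 in CDd14, against 12.53, 12.60 and 12.62 in CDd7 (log2 change -0.67 ± 0.20, 1.59-fold, adjusted p = 0.0337). The electron-carrying subunits had larger estimates and wider errors. CYC1, cytochrome c1, changed by -0.79 ± 0.30 (adjusted p = 0.0812) and the Rieske iron-sulfur protein UQCRFS1 by -0.73 ± 0.30 (adjusted p = 0.0965), and in both the CDd14 and CDd7 pools did not overlap. UQCRQ ran furthest against the rest of the complex, at 0.05 ± 0.18. Of the UQCC proteins, small inner membrane proteins known from human cells to act early in complex III assembly, UQCC6 fell 1.39-fold, with 10.39, 10.71 and 10.35 in CDd14 and 11.11, 11.00 and 10.77 in CDd7 (adjusted p = 0.0284). UQCC4 had a change of 0.14 ± 0.15 and did not pass.

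In complex IV 3 of 12 genes fell: COX7A1, NDUFA4 and COX8A. COX7A1, the form of subunit 7A known from heart and skeletal muscle, had 8.73, 9.43 and 8.86 in CDd14, against 10.82, 10.02 and 9.40 in CDd7. It had 9.41, 8.94 and 9.21 in NPd14 and 9.96, 9.91 and 10.14 in NPd7. One CDd14 pool reached just above the lowest CDd7 pool, so these groups overlapped, although the mean change was -1.07 ± 0.32 (2.10-fold, adjusted p = 0.0356). COX7A2, the widely expressed form of the same subunit, changed by -0.60 ± 0.22 with no overlap and did not pass (adjusted p = 0.07). NDUFA4 fell 1.76-fold (adjusted p = 0.0377) and COX8A 1.35-fold (adjusted p = 0.0493). COX6A1, the widely expressed form of subunit 6A, changed by -0.72 ± 0.31 (adjusted p = 0.116), and the main form of subunit 4, COX4I1, by -0.16 ± 0.10. COX7A2L, which joins complexes III and IV into larger assemblies, stood at 0.09 ± 0.12.

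ATP synthase had 4 of 17 genes past the threshold. ATP5MC1, one of the genes for the c subunit that forms the rotating ring, had the largest change of all 82 genes. Its log2 signals were 9.82, 9.55 and 9.50 in CDd14, 11.08, 11.34 and 10.73 in CDd7, 9.78, 10.23 and 9.12 in NPd14, and 10.11, 10.91 and 10.01 in NPd7. CDd14 lay below CDd7 without overlap, by 1.42 ± 0.31 on the log2 scale (2.68-fold, adjusted p = 0.0116). In the peripheral stalk, ATP5PO fell 1.50-fold (adjusted p = 0.0143) and ATP5PF 1.57-fold (adjusted p = 0.0326). ATP5F1D, the delta subunit of the catalytic F1 head, fell 1.43-fold (adjusted p = 0.0162). The catalytic beta subunit ATP5F1B changed by -0.39 ± 0.15 and the alpha subunit ATP5F1A by -0.23 ± 0.13, and neither passed. ATP5IF1, the inhibitor that stops ATP synthase running in reverse, was level on all 12 arrays, at 14.15, 13.87 and 14.08 in CDd14, 13.98, 14.05 and 14.11 in CDd7, 14.04, 13.96 and 13.87 in NPd14, and 13.99, 13.97 and 13.97 in NPd7.

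ATP5MC1, ATP5MC2 and ATP5MC3 encode the same mature c subunit behind different import signals, and their highest values were in different groups. ATP5MC2 had 11.40, 11.51 and 11.54 in CDd14, 11.43, 11.23 and 11.46 in CDd7, 11.21, 11.24 and 11.39 in NPd14, and 12.18, 11.45 and 12.02 in NPd7. Its high values were in NPd7, where ATP5MC1 was not at its highest. ATP5MC3 had 13.38, 12.69 and 13.11 in CDd14, 13.56, 13.95 and 13.77 in CDd7, 12.92, 13.24 and 12.39 in NPd14, and 13.09, 13.46 and 12.87 in NPd7, and like ATP5MC1 it was highest in CDd7. The log2 difference of ATP5MC1 minus ATP5MC2 averaged -1.86 ± 0.25 in CDd14 and -0.33 ± 0.43 in CDd7 (SD, n = 3 each), with no overlap. An exact two-sided permutation test over these pools gave p = 0.1, the smallest 3 pools against 3 allow, and 0.24 after adjustment over 12 such comparisons.

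**Figure D2:**
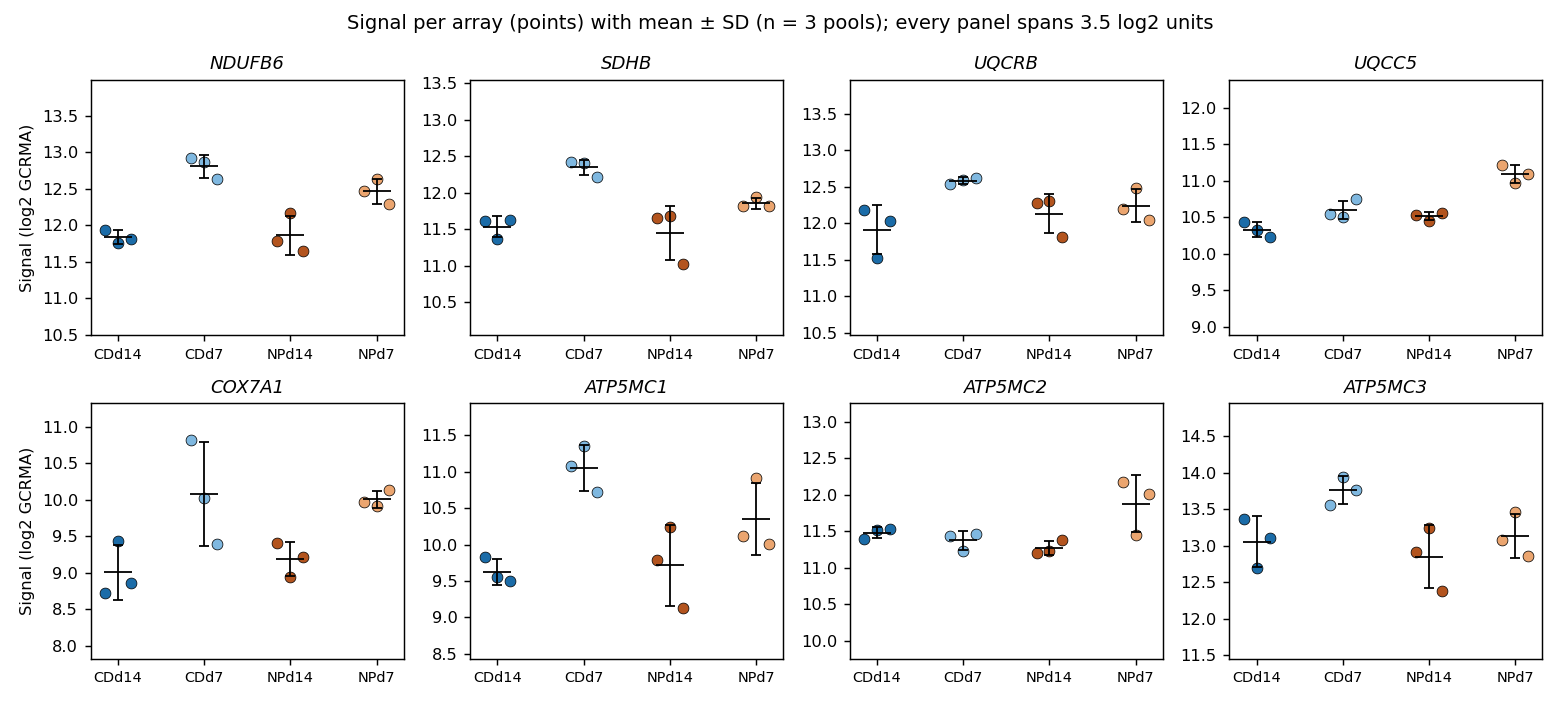
Log2 signal (y axis) of 8 genes on each array of CDd14, CDd7, NPd14 and NPd7 (x axis), with the mean and SD of 3 pools. NDUFB6, SDHB and ATP5MC1 have their highest mean in CDd7 and UQCC5 and ATP5MC2 in NPd7, and the COX7A1 pools of CDd7 spread from 9.40 to 10.82.

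Dim and bright genes contributed unequally. Of 9 members with a mean log2 signal up to 10, 6 fell, with a median change of -0.87, where 13.7% of all genes of that level fell. From 10 to 12 it was 11 of 34 (median -0.46), from 12 to 14 it was 7 of 34 (median -0.27), and above 14 it was 1 of 5 (median -0.30). The share of all genes that fell in these bands was 16%, 14.5% and 4.63%.

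Other measures moved with the day in CD. The difference between 3' and 5' control probe sets is known to grow with RNA degradation or shorter labelling. Averaged over the GAPDH, cyclophilin and EF1A controls, it was 1.84 to 2.05 in CDd14 and 1.42 to 1.79 in CDd7 on the log2 scale, and pool 2 of CDd7 had the lowest of all 12 values. The eIF-4E and GST controls, not in this average, ran the other way, at 9.71 to 9.90 and 2.87 to 3.80 in CDd14 and 10.31 to 10.47 and 3.85 to 4.60 in CDd7. Actin was level, at -0.15 to -0.14 in CDd14 and -0.17 to -0.14 in CDd7. Of the added control transcripts, Lys had 5.97 to 6.13 in CDd14 and 5.54 to 5.73 in CDd7. Phe had 4.16 to 4.36 in CDd14 and 3.83 to 3.97 in CDd7. A Dap pair overlapped, at 4.76 to 5.67 in CDd14 and 4.76 to 4.92 in CDd7. Both Thr pairs overlapped too. One had 5.21 to 5.52 in CDd14 and 5.02 to 5.34 in CDd7, and the other 5.63 to 5.92 and 5.47 to 6.04. Of 12 markers of dividing cells 8 were kept and 3 of these fell, and the log2 of their summed signal was 9.45 to 9.86 in CDd14 and 12.40 to 13.32 in CDd7. Among 15 kept epithelial markers 3 rose and 0 fell. Of 9 kept markers of T and natural killer cells 2 rose (median 0.77), of 7 of macrophages and neutrophils 1 rose (median 0.89), and of 13 of stromal fibroblasts 2 rose (median 0.33), with 0 lower past the threshold in each of these lists. The 1 kept endothelial marker fell by 4.48 on the log2 scale, and 0 of 4 ciliated cell markers passed (median -0.94). Their part in the fall of the chain's genes was not tested.

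The same days were compared in heifers that did not become pregnant. The genes were again mostly lower at day 14, and none passed. Over all genes 0.0737% fell and 0.059% rose, 0.133% in either direction. Of the 82 genes, 80 differences were negative, with a median of -0.29 against -0.064 over all genes, and 29 (35.4%) reached an unadjusted p under 0.05, all of them lower, against 16.5% of all genes, 11.3% lower. In 30 genes every NPd14 pool lay below every NPd7 pool, and in 0 above, against 15.3% and 7.33% of all genes. All 25 genes that fell in CD had a negative difference in NP, between -0.82 and -0.11, with a median of -0.48. The 3' minus 5' control difference was 2.12 to 2.42 in NPd14 and 1.73 to 2.11 in NPd7, without overlap. No marker of any cell type list passed in NP, where the median was -1.85 for 13 stromal, -2.26 for 4 ciliated, 0.45 for 8 cycling and 1.13 for 7 macrophage and neutrophil markers. Their part in the day effect in NP was not tested.

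The smallest adjusted p in NP belonged to UQCC5, an early assembly protein of complex III, at 0.0731. It had 10.53, 10.45 and 10.56 in NPd14, against 11.22, 10.97 and 11.09 in NPd7, a log2 change of -0.58 ± 0.11. UQCC3, another of these proteins, changed by -0.62 ± 0.14 (adjusted p = 0.104), and ATP5F1D by -0.53 ± 0.12 (adjusted p = 0.108). In complex IV the smallest p values were those of COX7A1 at -0.82 ± 0.32 and COX8A at -0.33 ± 0.14. Without pool 3 of NPd14 the median of the 82 genes was -0.15, and without any other single array it lay between -0.38 and -0.20.

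Whether the day effect differed between outcomes was tested as an interaction, and no member passed, as was so for 0 of all genes. The median of CD day effect minus NP day effect was -0.10, against 0.04 over all genes, with 49 differences negative and 33 positive. ATP5MC2 was the single gene at an unadjusted p under 0.05 (1.22% of members, against 14.5% of all genes), with a day effect of 0.11 ± 0.17 in CD and -0.61 ± 0.17 in NP and a difference of 0.71 ± 0.25 (adjusted p = 0.299). NDUFV3 changed by -0.82 ± 0.24 in CD and -0.14 ± 0.24 in NP, a difference of -0.68 ± 0.33 (adjusted p = 0.371). ATP5MC1 had a difference of -0.79 ± 0.44 (adjusted p = 0.415). A p that misses the threshold does not show that the day effects were alike.

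**Figure D3:**
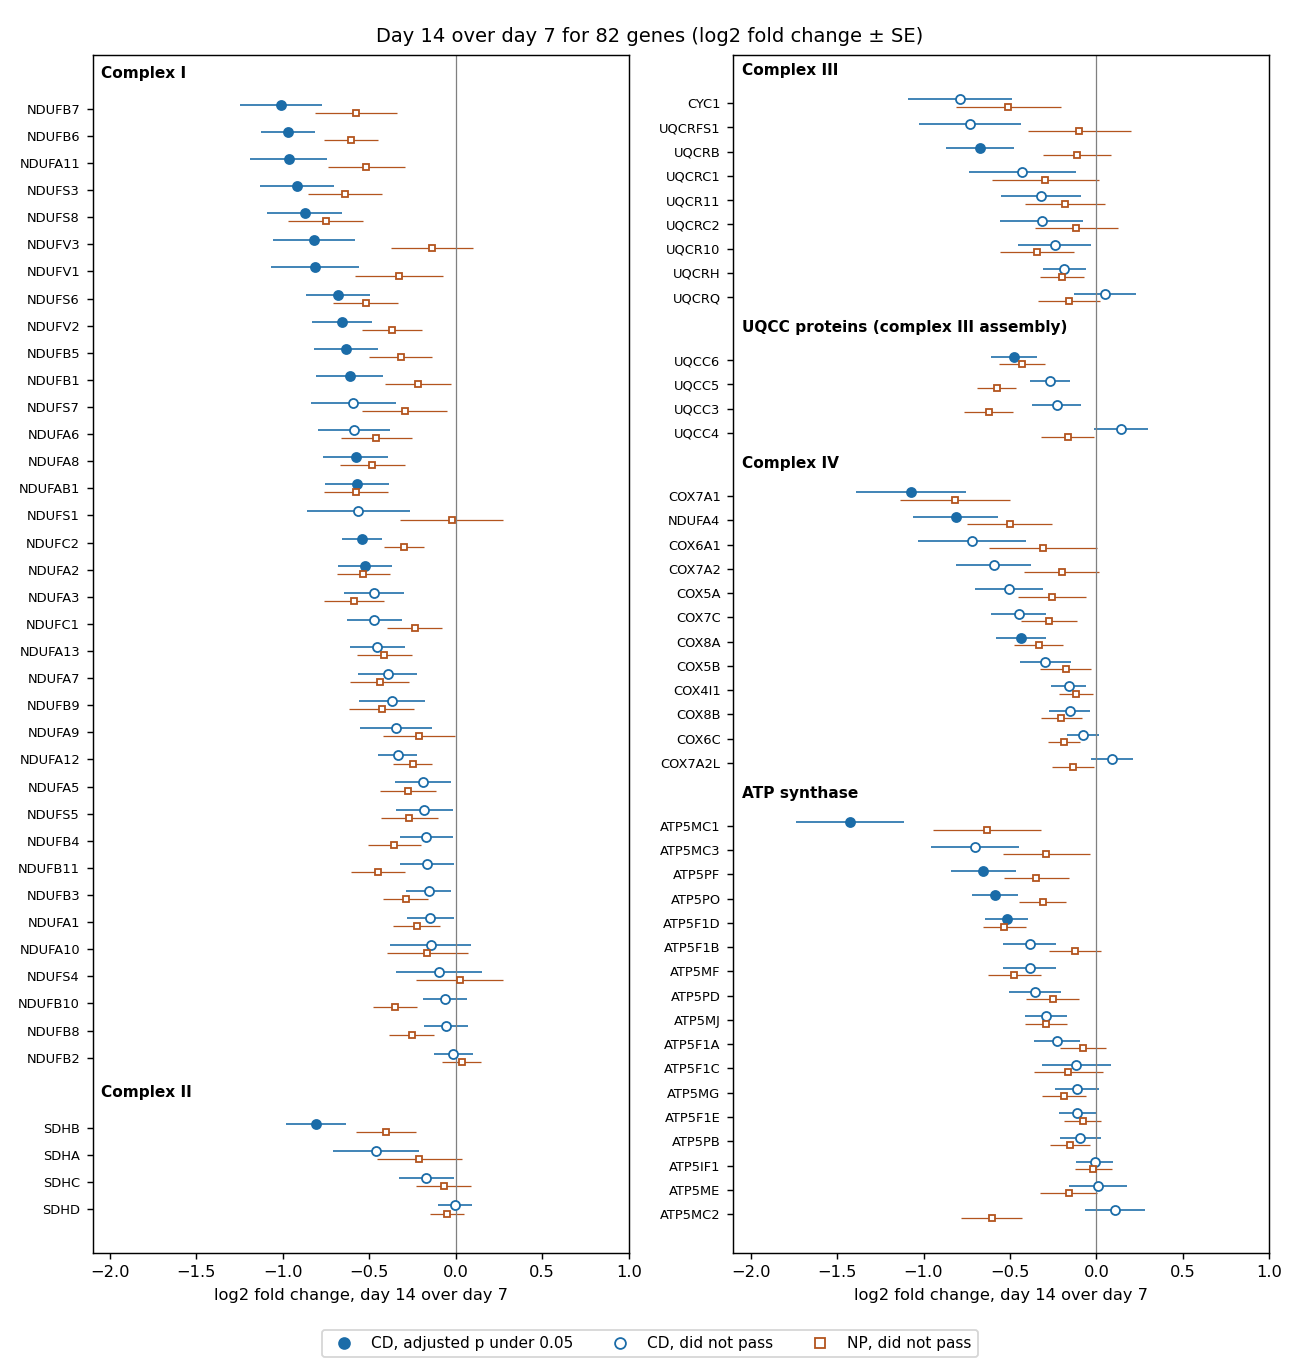
Log2 fold change of day 14 over day 7 (x axis) with its SE for all 82 genes by complex (y axis), blue circles for CD and orange squares for NP; filled circles passed an adjusted p under 0.05. The 25 filled circles are all left of 0, and for 22 of these genes the NP square is nearer to 0. These genes were selected by their fall in CD, which by itself favours a smaller value in NP. Over all 82 genes the difference of day effects was negative for 49 and positive for 33, and none passed.

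The third comparison sets heifers that delivered a calf against those that did not at day 7, before transfer. Subunit genes leaned higher in CD and the UQCC assembly genes lower, and a single gene, UQCC5, passed. Over all genes 2.02% fell and 1.46% rose, 3.48% in either direction. Of the 78 subunit genes 63 differences were positive, while all 4 UQCC differences were negative. Over the 82 genes the median was 0.19, against -0.012 over all genes, and 17 (20.7%, 14 higher and 3 lower) reached an unadjusted p under 0.05, against 30.4% of all genes. This comparison shares the CDd7 pools with the day effect in CD and the NPd7 pools with the day effect in NP.

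UQCC5 had 10.54, 10.51 and 10.74 in CDd7, against 11.22, 10.97 and 11.09 in NPd7, and fell by 0.49 ± 0.11 on the log2 scale (1.41-fold, adjusted p = 0.0452). CDd7 lay above the CDd14 pools (10.43, 10.32 and 10.23) without overlap. That day 14 minus day 7 difference was -0.27 ± 0.11 and did not pass (adjusted p = 0.108). CDd7 overlapped the NPd14 pools (10.53, 10.45 and 10.56), and NPd7 stood above the other 3 groups. The call was lost when any of 8 of the 12 arrays was left out and when the 6 day 7 arrays were fitted alone. UQCC3 had the same order of group means, with 9.56, 9.42 and 9.37 in CDd7 and 10.08, 9.74 and 10.05 in NPd7 (-0.50 ± 0.14, adjusted p = 0.0645). UQCC4 differed by -0.34 ± 0.15 and UQCC6 by -0.10 ± 0.13.

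**Figure D4:**
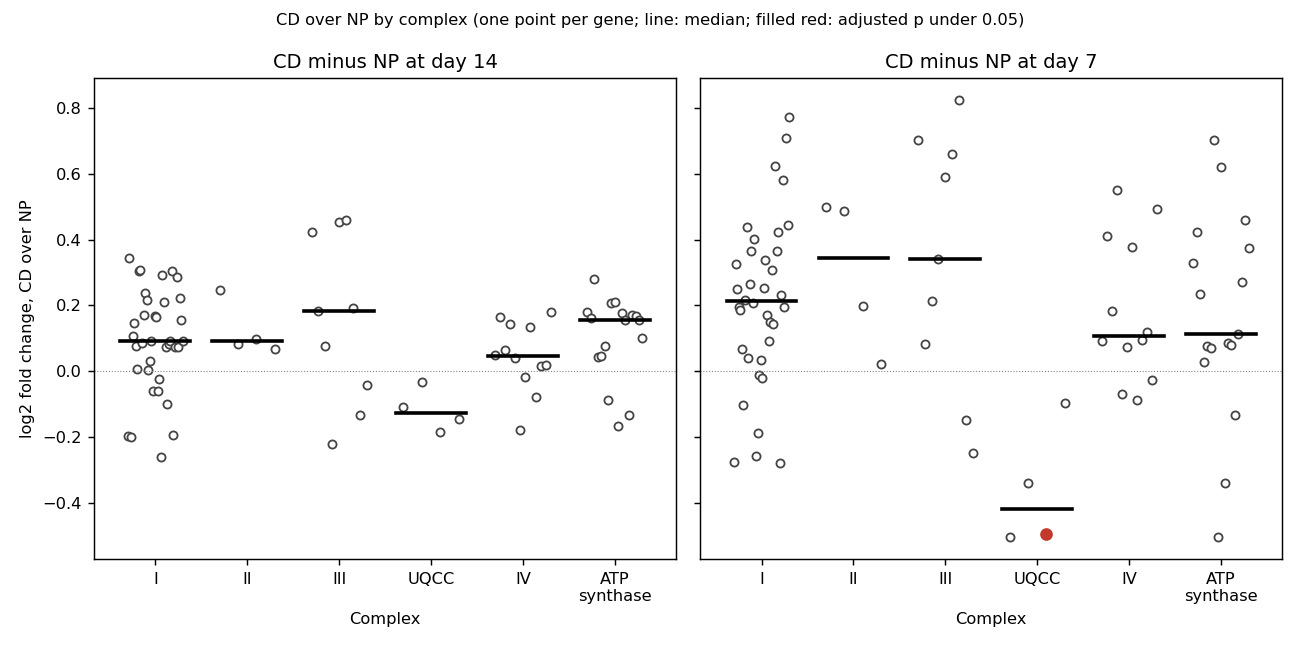
Log2 fold change of CD over NP (y axis) at day 14 (left) and day 7 (right), one point per gene by complex (x axis), with the median as a line. At day 7 all 4 UQCC genes lie below 0 and 63 of the other 78 genes above it; UQCC5, in red, is the single gene that passed.

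Complexes I, II and III had the higher medians at day 7, at 0.21, 0.34 and 0.34, against 0.11 in complex IV and 0.11 in ATP synthase. All 8 N module and all 5 Q module genes of complex I had positive differences, and NDUFV3 had the smallest adjusted p among them, with 11.05, 11.72 and 11.33 in CDd7 and 10.60, 10.82 and 10.37 in NPd7 (0.77 ± 0.24, adjusted p = 0.075). NDUFV1 differed by 0.71 ± 0.25 and SDHB by 0.49 ± 0.17. In complex III the Rieske protein UQCRFS1 had 12.33, 12.65 and 12.45 in CDd7 and 11.52, 12.10 and 11.34 in NPd7 (0.82 ± 0.30, adjusted p = 0.106), and the core protein UQCRC2 differed by 0.66 ± 0.24. The groups did not overlap for NDUFV3, NDUFV1, SDHB, UQCRFS1 and UQCRC2, and none of them passed. The second kept probe set of UQCRC2, dimmer, ran the other way, at -0.46 (adjusted p = 0.0908, limma). At day 7, 7 of 12 second probe sets had the same sign as the brighter one, and none passed. In 22 of the 82 genes every CDd7 pool lay above every NPd7 pool, and in 6 below, where 16.7% and 18.6% of all genes did so.

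In ATP synthase 3 of 17 differences were negative. ATP5MC2 ran furthest against the rest, at -0.51 ± 0.17 (adjusted p = 0.097), beside ATP5ME at -0.34 ± 0.17 and ATP5MJ at -0.13 ± 0.12. ATP5MC1 differed by 0.70 ± 0.31, ATP5MC3 by 0.62 ± 0.25 and ATP5PO by 0.38 ± 0.13. In complex IV, NDUFA4 differed by 0.49 ± 0.24 and COX5A, a subunit on the matrix side, by 0.41 ± 0.20. Markers of stromal fibroblasts moved with outcome at day 7. Of 20 listed 13 were kept and 8 of these fell, all 13 differences were negative, and the log2 of their summed signal was 11.62 to 12.65 in CDd7 and 13.24 to 14.54 in NPd7. COL1A1 was not kept. Of 9 kept markers of T and natural killer cells 3 fell and all 9 differences were negative (median -1.16), and of 7 of macrophages and neutrophils 0 passed and 1 difference was positive (median -0.98). Of 8 kept markers of dividing cells 2 rose, and their summed signal was 12.40 to 13.32 in CDd7 and 9.83 to 11.84 in NPd7. The 3' minus 5' control difference was 1.42 to 1.79 in CDd7 and 1.73 to 2.11 in NPd7. Their part in the differences at day 7 was not tested.

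At day 14 no member passed between outcomes, and over all genes 0.0147% did, each lower in CD. The median was 0.09, against 0.03 over all genes, with 61 of 82 differences positive. The groups did not overlap for 2 genes higher in CD and 1 lower, against 4.85% and 5.72% of all genes. NDUFB8 was the single gene at an unadjusted p under 0.05 (1.22% of members, against 6.34% of all genes), with 13.47, 13.23 and 13.29 in CDd14 and 13.06, 13.24 and 12.82 in NPd14 (0.29 ± 0.13, adjusted p = 0.671). UQCRC2 differed by 0.46 ± 0.24 and its partner core protein UQCRC1 by 0.45 ± 0.31. The second probe sets of UQCRC2 and UQCRC1, dimmer, differed by -0.29 and 0.34. At day 14, 4 of 12 second probe sets had the same sign as the brighter one. The lean toward CD rested on pool 3 of NPd14, since without it the median was -0.05 with 28 positive and 54 negative differences. UQCC5 again had non-overlapping groups and a difference of -0.19 ± 0.11, which did not pass.

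Genes that assemble, feed or regulate the chain are given for the day 14 against day 7 comparison in CD. Of 34 assembly factors in 5 lists 6 fell (17.6%), against 14.2% of all genes, and none rose. Of 11 complex I factors 1 fell, NDUFAF5 by 4.06-fold, and their median was -0.13. SDHAF1, which helps fit the iron-sulfur centres of SDHB, fell 2.01-fold and was the single call among 4 complex II factors. Of 13 complex IV factors COA8 fell 1.64-fold and COA3 1.59-fold. Of 4 ATP synthase factors FMC1 fell 2.15-fold and ATPAF2 1.58-fold, while 0 of 2 complex III factors passed.

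The citric acid cycle, which supplies NADH and succinate, had 3 of 10 genes lower and none higher, against 14.2% and 9.87% of all genes. OGDH, of the oxoglutarate dehydrogenase complex, averaged 8.59 in CDd14 and 11.59 in CDd7, a fall of 7.95-fold (adjusted p = 0.00283). IDH3A, of the NAD-dependent isocitrate dehydrogenase, fell 2.68-fold, and citrate synthase CS fell 1.47-fold. Of 8 kept regulators of mitochondrial biogenesis and DNA upkeep, 3 fell and none rose. Their median was -0.19, and 3 of the 8 differences were positive. PPARGC1A, a coactivator of nuclear genes for the chain, averaged 6.71 in CDd14 and 8.67 in CDd7, with 6.67 in NPd14 and 7.29 in NPd7. Its fall in CD was 3.89-fold (adjusted p = 0.00485). SSBP1, which binds single-stranded mitochondrial DNA, fell 1.51-fold, and the polymerase subunit POLG2 fell 1.41-fold. POLG2 was also 1.46-fold higher in CD than NP at day 7 (adjusted p = 0.0392).

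For moving ATP out of mitochondria, 2 of 9 kept genes fell and none rose, where 14.2% and 9.87% of all genes did so. The outer membrane channel VDAC2 averaged 12.13 in CDd14 and 13.96 in CDd7, a fall of 3.55-fold (adjusted p = 0.00398), and the ADP/ATP carrier SLC25A4 fell 1.53-fold. Of 9 ubiquinone genes 3 fell and 1 rose. COQ10A fell 5.49-fold and COQ6 1.95-fold, and COQ8A, a kinase-like protein of ubiquinone synthesis, rose 2.51-fold. Mitochondrial ribosomal proteins make the subunits encoded in the organelle. Of 66 such genes 8 fell (12.1%, against 14.2% of all genes) and 3 rose. Their differences were less one-sided, with 40 negative and 26 positive. Their median was -0.10, against -0.39 for the 82 genes of the chain. Whether these medians differ was not tested. At day 7 MRPS6 was 1.83-fold higher and MRPS26 2.34-fold lower in CD than in NP, beside POLG2 the only genes of these lists to pass there. No gene of these lists passed between days in NP or between outcomes at day 14.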

How the data were processed

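RNA of 12 pools of endometrial biopsies was measured on Affymetrix bovine arrays. The authors deposited log2 values per probe set made with GCRMA, per the submitters' processing notes, which also name limma, both without a version. GCRMA corrects background, normalizes between arrays and pulls dim probe sets toward a floor. After removing 112 control probe sets, 13449 of 24016 probe sets were kept (log2 above 4 on at least 3 arrays). Names came from the platform annotation, and 108 of 108 member probe sets matched a RefSeq gene.

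One model with 4 group means over 12 arrays was fitted with limma 3.58.1 in R 4.3.3 (empirical Bayes, 8 residual and 2.13 prior degrees of freedom), with 5 contrasts. P-values were adjusted by Benjamini-Hochberg over all kept probe sets, two-sided, with a threshold of 0.05. The script was tested on simulated data. Permutation tests used scipy 1.17.1.

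Groups and pool numbers came from the sample titles and source names, and 1 CDd14 title that names pool 2 but replicate 3 was read as replicate 3. The members, the gene lists and the tests were chosen with earlier results of these data known. Named are the genes past the threshold (in full for up to 4 per complex), the 2 of smallest p per complex and pairwise contrast, the one running furthest against its complex between days in CD, the succinate dehydrogenase, CYC1 and c-subunit genes, ATP5IF1, COX7A2L and tissue isoforms, and up to 3 genes of each neighbouring list; further subunits are named for their role, after their values were seen. Alternatives tried were other filters on dim probe sets, normalizations, moderation, probe set averaging, the pool number as a block, fits of 6 arrays and leaving out each array. No sequences or coordinates were used.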

Additional observations from a re-analysis of the deposited data

Results flagged for a closer look

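COX6B2, known in human and mouse as the testis form of complex IV subunit 6B, was left out by the filter because it was above 4 on 2 arrays only, yet it was raised in a single group. Its log2 signals were 2.19, 2.20 and 2.18 in CDd14, 3.12, 5.91 and 6.18 in CDd7, 2.18, 2.16 and 2.17 in NPd14, and 2.20, 2.18 and 2.17 in NPd7. The CDd7 mean was 5.07 ± 1.70 (SD, n = 3), and the other 9 arrays sat at the floor of the GCRMA values. In the limma fit without a filter the difference of day 14 minus day 7 in CD was -2.88 ± 0.66 (SE). That of CD minus NP at day 7 was 2.89 ± 0.66. This SE pools the spread of all groups, whose SD was 1.70 in CDd7 and 0.01 to 0.02 in the others. The gene was picked out for its CDd7 mean, so these differences are described without p-values. The size of such differences depends on the GCRMA floor, and the widely expressed form of the subunit was not analysed here.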

How the results depend on the processing

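The medians over the 82 genes moved by less than the spread between pools (SD 0.16) under all alternatives, although that of CD minus NP at day 14 changed sign to -0.05 without pool 3 of NPd14, and 0 of the calls changed direction. Between days in CD, 15 genes passed with no filter on dim probe sets (14 of them among the 25), 20 to 28 under the other alternatives, and 3 to 34 when an array was left out. NDUFB6, NDUFC2 and SDHB passed in all 20 alternatives. Between days in NP, 1 gene passed with no filter (UQCC5, adjusted p = 0.0495) and 0 to 1 with an array left out (NDUFB6, adjusted p = 0.0483, without pool 2 of NPd14). For CD minus NP at day 7, 0 genes passed with only the 6 arrays compared and 0 to 3 with an array left out: SDHB (adjusted p = 0.0472) without pool 3 of NPd14, and ATP5MC2 (adjusted p = 0.0187) and UQCC3 (adjusted p = 0.0322) without pool 2 of NPd7. With the pool number as a replicate block, 2 passed, UQCC5 and UQCC3 (adjusted p = 0.0334), and the block changed no other count by over 1.5 times (28 between days in CD). The numbers are not known to pair pools: over 18 same-numbered pairs, deviations correlated at -0.26 to 0.62, and 11 were over 0.1. Only pairs across days within an outcome could hold the same heifers. For these, pools 1, 2 and 3 gave 0.16, 0.62 and 0.51 in NP and 0.24, -0.07 and 0.23 in CD. Pools of unlike number gave -0.54 to 0.19 in NP and -0.38 to 0.24 in CD. The block used the same number across both outcomes, so pairing within an outcome was not tested. Between outcomes at day 14 and for the difference of day effects, 0 passed under every alternative. With 3 pools a group and bulk tissue, changes of the size of most members' differences were often not detectable.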

Other observations

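COX6A2 and NDUFA4L2, the muscle form of subunit 6A and a relative of NDUFA4 induced by low oxygen in other tissues, were near the floor in every group: COX6A2 averaged 1.81 in CDd14, 1.80 in CDd7, 1.80 in NPd14 and 1.81 in NPd7. COX8B, a muscle form of subunit 8, was among the kept genes, with 12.67, 12.49 and 12.52 in CDd14, 12.66, 12.66 and 12.82 in CDd7, 12.52, 12.71 and 12.39 in NPd14, and 12.62, 12.84 and 12.76 in NPd7. Its second probe set did not follow this level pattern: it differed by -1.14 between CD and NP at day 7 (adjusted p = 0.0549, limma), against -0.03 for the brighter one.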
